A study of Mus musculus with 18 samples.

Results

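The 10 genes described here encode chaperones, folding enzymes and regulators of the endoplasmic reticulum (ER): Hspa5, Hsp90b1, Calr, Canx, Pdia4, Pdia6, Dnajb9, Xbp1, Herpud1 and Sdf2l1. They were listed by symbol for these roles, and the rule that lists them uses no measured value. The choice was still made with earlier results of these data known. All 10 were found among the 55450 gene IDs of the count table, and all 10 were among the 17912 genes that passed the filter on low counts and were tested.

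Secreted and membrane proteins fold inside the ER, where chaperones hold them, lectins retain those with unfinished sugar chains, and protein disulfide isomerases form and rearrange their disulfide bonds. When unfolded proteins build up, the membrane sensors IRE1 (Ern1), ATF6 and PERK (Eif2ak3) start the unfolded protein response, which raises the transcription of chaperones and of the degradation machinery and slows translation. Muscle cells also use the ER as their calcium store, the sarcoplasmic reticulum, and myoblast fusion remodels it.

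The RNA came from C2C12, an established line of mouse muscle precursor cells that stop dividing and fuse into multinucleate myotubes in low serum. The series was made to ask how the dosage of the Dlk1-Dio3 noncoding RNAs, an imprinted cluster, bears on muscle cell state and differentiation. Control cells had received the pX458 vector, which carries Cas9 and EGFP, without guides, and were kept as a population sorted for EGFP. The other 2 lines were grown from single cells after CRISPR-Cas9 deletions, made with guide pairs, near the Meg3 promoter. By label, one of these clones is a Dlk1-Dio3 overexpressor and the other a Dlk1-Dio3 knockout. Myoblasts were kept in 10% fetal bovine serum, and myotubes were collected on day 3 in 2% horse serum. The 3 lines in 2 stages gave 6 groups of 3 libraries, named A, B and C. Each edited genotype was 1 clone and the control was not a clone, so genotype and clone cannot be told apart. Nothing in the labels says that the libraries of a group came from separate cultures, so the p-values measure only the spread between these libraries, which may be technical.

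Libraries held 41544358 to 79140702 counts, and among the 10 genes the lowest count in a library was 290 (Sdf2l1, control myotubes). Meg3, the targeted gene, had 0 counts in every control library and in every library labelled knockout, and 5222 to 7763 counts in the overexpressor libraries. Its counts therefore do not separate the control from the knockout label. All 7 skeletal muscle markers examined were present in every group. Their summed level, in CPM (each library's counts scaled to a common library size), was 1273 to 1455 in control myoblasts, 2532 to 3153 in overexpressor myoblasts and 7807 to 9447 in knockout myoblasts. In myotubes it was 9500 to 10103 in control, 15835 to 17447 in the overexpressor and 20373 to 24713 in the knockout. These markers thus moved with every comparison below, and their part in the results was not tested. In bulk RNA, fewer cells of a type and less RNA per cell cannot be told apart. The 4 adipocyte and the 4 endothelial markers each summed to under 1 CPM in every library, the 4 macrophage markers reached at most 2.22 CPM and the 4 neuron markers 2.87 to 204 CPM. The 4 fibroblast markers summed to 31.4 to 44.2 CPM in the myoblast libraries (Lum at 0 in those of control and the overexpressor), and to 154 to 169 CPM in control, 15.7 to 18.8 CPM in overexpressor and 61.9 to 74.1 CPM in knockout myotubes. Replicate C of the overexpressor myotubes had 6.96% of genes more than 2-fold from the mean of the other replicates, against 2.58% to 4.56% in the other libraries. By the median absolute log2 difference from the other replicates it stood less apart. It was at 0.224, beside 0.218 in overexpressor myoblast B and 0.208 in knockout myotube C. Over all genes, the share of higher calls among all calls depended on the scaling. With library totals in place of TMM factors it went from 54.0% to 37.9% for differentiation of control cells, from 45.5% to 34.0% for differentiation of the knockout clone, from 45.8% to 57.8% for the overexpressor against control in myotubes and from 42.7% to 61.0% for the difference between their differentiation responses, and with DESeq2 size factors from 40.4% to 52.0% for the corresponding difference of the knockout clone.

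Promoter sequence is shown first, because several of these genes share a short element through which the unfolded protein response is known to act. This ER stress response element (ERSE) is bound by ATF6 together with NF-Y. It was searched as CCAAT and CCACG separated by 9 bases of any kind, on both strands of the RefSeq promoter windows of GRCm38.p6, which run from 250 bases before to 50 bases after a gene's start. It was found in 39 of 32851 windows (0.119%) and in 5 of the 10 genes. This element and those below were searched because they are known from this response. The counts therefore describe the 10 genes and are no test of them. The matches follow with 5 bases on each side, read along the gene's own strand. Capitals mark the element, which appears as its reverse complement where it lies on the opposite strand.
Hspa5 (chr2:34772020-34772048, plus strand): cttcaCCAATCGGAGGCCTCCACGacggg
Hsp90b1 (chr10:86705633-86705661, minus strand): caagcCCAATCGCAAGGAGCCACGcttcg
Hsp90b1 (chr10:86705528-86705556, minus strand, reversed element): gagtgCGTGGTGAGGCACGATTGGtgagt
Calr (chr8:84847070-84847098, minus strand, reversed element): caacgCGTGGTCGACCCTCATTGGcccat
Canx (chr11:50325795-50325823, minus strand): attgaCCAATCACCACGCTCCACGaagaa
Pdia6 (chr12:17266486-17266514, plus strand): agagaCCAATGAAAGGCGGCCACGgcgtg
Hsp90b1 held a pair of matches. In the other genes the single match began between 65 bases (Hspa5) and 162 bases (Calr) before the RefSeq start.

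Herpud1 and Sdf2l1 had the widest ranges of level of the 10 genes, in opposite directions, so the 250 bases before their starts are shown whole. In Herpud1, capitals mark, in this order, a reversed ATF4 element (TGATGNAAN, both strands, in 3.95% of all windows) and an ERSE-II (ATTGG and CCACG separated by 1 base of any kind, both strands, in 0.0365%, or 12 windows). These motifs occurred in no other gene of the 10. In Sdf2l1, capitals mark the separate parts of an ERSE, CCAAT and CCACG, on either strand: each occurred 3 times, but no pair had the order and spacing of the full element.
Herpud1 (chr8:94386179-94386428, plus strand): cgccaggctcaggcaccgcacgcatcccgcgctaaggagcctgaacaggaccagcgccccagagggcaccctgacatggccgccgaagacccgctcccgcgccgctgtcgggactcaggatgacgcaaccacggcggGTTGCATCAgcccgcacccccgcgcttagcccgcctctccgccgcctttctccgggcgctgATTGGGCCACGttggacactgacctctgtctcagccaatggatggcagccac
Sdf2l1 (chr16:17132384-17132633, minus strand): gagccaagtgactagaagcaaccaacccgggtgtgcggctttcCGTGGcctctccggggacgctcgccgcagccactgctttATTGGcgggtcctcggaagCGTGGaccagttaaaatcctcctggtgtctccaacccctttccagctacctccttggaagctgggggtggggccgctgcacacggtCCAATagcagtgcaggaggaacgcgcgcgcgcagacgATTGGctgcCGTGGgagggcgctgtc
The element UPRE (TGACGTGG, both strands), a site of the spliced XBP1 protein, was in 222 windows (0.676%) and in none of the 10 genes. The windows follow RefSeq starts. The GENCODE start of Dnajb9 lies 258 bases upstream of its RefSeq start, so the bases before that GENCODE start were not searched. That of Hspa5 lies 120 bases upstream, so the Hspa5 match falls within the gene as GENCODE draws it. A match is a description of letters and not a measured binding site.

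The 10 genes did not move as a block. In control cells 4 of the 10 rose with differentiation and 4 fell, where 33.9% and 28.8% of all genes tested did so. In the overexpressor clone 2 rose and 5 fell (29.8% and 33.0% of all genes), and in the knockout clone 1 rose and 7 fell (29.8% and 35.6%). The response of the overexpressor clone was lower than that of control for 3 genes and higher for 1 (22.3% and 16.6% of all genes). For the knockout clone it was lower for 7 genes and higher for 1 (29.9% and 20.2%). The median log2 difference of the 10 responses was -0.79 for the knockout clone against control, beside -0.12 over all genes tested, and -0.24 for the overexpressor clone, beside -0.05. These are calls at an adjusted p under 0.05 by edgeR's quasi-likelihood test, adjusted over all 17912 genes, as are all calls below.

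Between lines, the edited clones differed from control mostly in myotubes. In myoblasts 0 of the 10 genes were higher and 4 were lower in the overexpressor (20.7% and 19.7% of all genes), and 2 were higher and 3 lower in the knockout (26.4% and 26.6%). With only the compared groups fitted, the knockout counts were 4 and 4, with Hsp90b1 and Canx called higher (adjusted p = 0.00116 and 5.21e-05) and Herpud1 lower (0.00801). Over all genes that fit called 5756 higher and 5750 lower, against 4720 and 4769 in the fit of all groups. In myotubes 2 of the 10 genes were higher and 7 lower in the overexpressor (26.2% and 30.9%), and 1 was higher and 8 lower in the knockout (31.0% and 37.0%). Both comparisons in a stage share their control libraries. Without replicate C of the overexpressor myotubes, Pdia4 left the genes called lower than control in myotubes and Hsp90b1 joined them, which again gave 2 higher and 7 lower, while DESeq2 size factors gave 6 lower and library totals 5 lower. Against the knockout, the overexpressor was higher for 2 and lower for 4 genes in myoblasts (25.7% and 26.9%), and higher for 5 and lower for 2 in myotubes (30.6% and 29.1%). The last counts ran from 3 to 6 higher and from 2 to 3 lower over the alternatives, with 3 higher when only the compared groups were fitted. Over all genes that fit gave 4107 higher calls, against 5475 in the fit of all groups. The summed level of the 10 genes was 4429 to 4759 CPM in control myoblasts and 4271 to 4646 CPM in control myotubes. It was 3095 to 3597 CPM in overexpressor myoblasts and 3734 to 3863 CPM in knockout myoblasts, and 2563 to 2953 and 2293 to 2424 CPM in the myotubes of these clones. No library of an edited clone reached the lowest control library of its stage. Calr weighs most in this sum, at a mean of 1830 CPM in control and 894 CPM in knockout myoblasts. The sum therefore does not show that the genes fell as a set: in knockout myoblasts 2 were called higher than control and 3 lower.

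**Figure D1:**
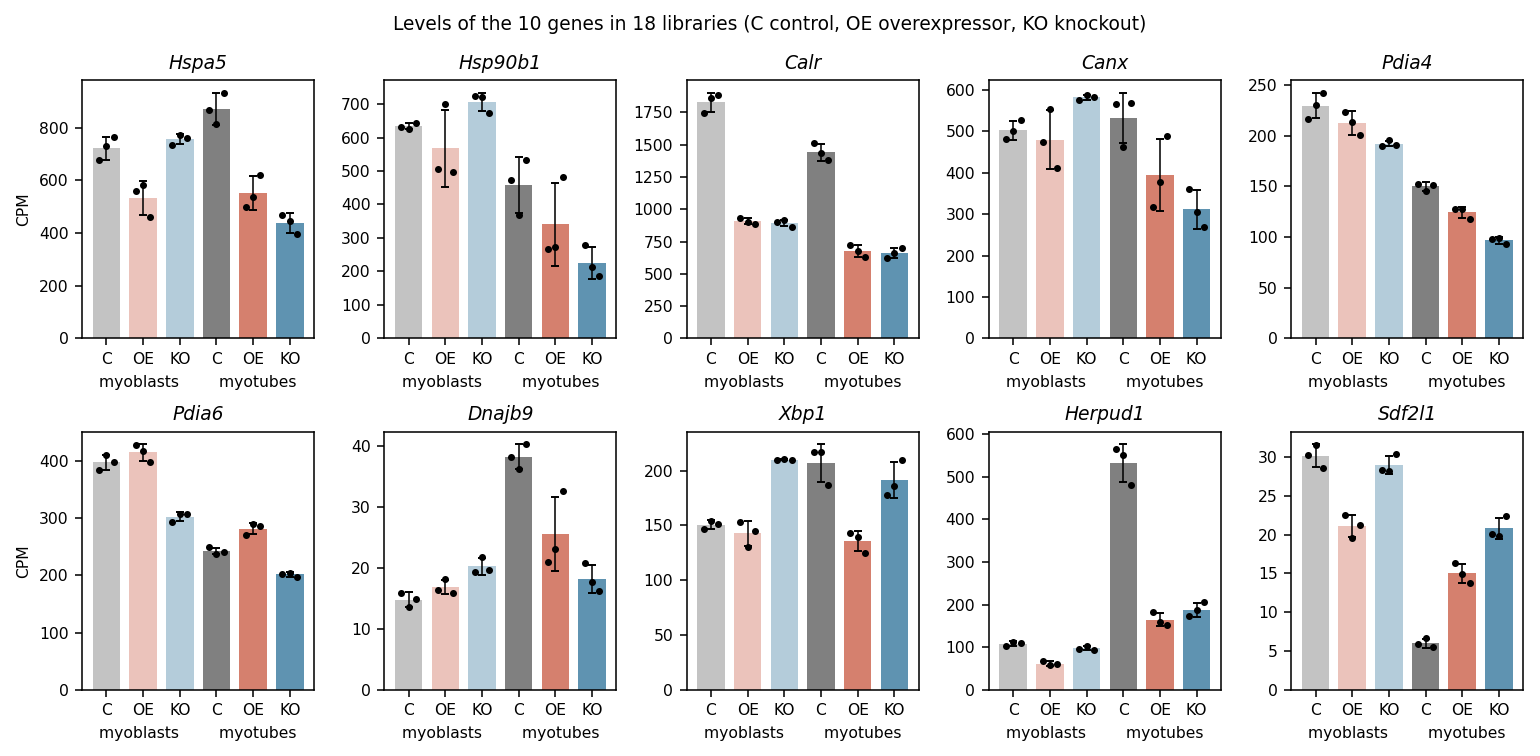
Level of each of the 10 genes in CPM (y axis, from 0) in the 6 groups (x axis), with bars at the mean of 3 libraries, error bars of 1 SD and a point per library. Herpud1 is highest in control myotubes (mean 532 CPM), where Sdf2l1 is lowest (mean 6.02 CPM). For both genes the mean levels of the myotubes of both edited clones lie between those of control myoblasts and control myotubes.

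Compared per length, as CPM per kilobase of exon, Calr was the most abundant of the 10 genes in every group, at 635 ± 25.7 in control myoblasts, 501 ± 22.6 in control myotubes and 230 ± 13.1 in knockout myotubes (SD, n = 3). The second was Hspa5 in 4 groups, among them control myoblasts (171 ± 10.3) and knockout myotubes (103 ± 8.92). It was Hsp90b1 in overexpressor myoblasts (141 ± 28.6, beside 126 ± 15.5 for Hspa5) and Herpud1 in control myotubes (228 ± 19.4, beside 206 ± 14.3). Dnajb9 was the least abundant in myoblasts of all 3 lines, at 5.81 ± 0.46 in control, and in control myotubes the lowest was Sdf2l1 at 5.43 ± 0.532 (SD, n = 3). In control myoblasts Herpud1 was at 46.3 ± 2.33.

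Hspa5 encodes BiP, the ER Hsp70 that binds unfolded chains and holds the stress sensors inactive. It lies on chromosome 2 (34771970 to 34777547, plus strand, GRCm38). Its level was 677, 729 and 763 CPM in control myoblasts, 558, 584 and 459.7 in overexpressor myoblasts and 736, 773 and 763 in knockout myoblasts (replicates A, B and C). In myotubes it was 866, 813 and 934 CPM in control, 498, 539 and 623 in the overexpressor and 468, 448 and 395 in the knockout. Control myotubes were the highest group and knockout myotubes the lowest by mean, and neither edited clone overlapped control in myotubes. The level of control cells was higher in myotubes than in myoblasts by 0.27 on the log2 scale (adjusted p = 0.0198, SE 0.095). That call was lost without control myoblast replicate A (adjusted p = 0.0853), without control myotube replicate C (0.0886) and with library totals (0.828), where the change was 0.027. In the knockout clone Hspa5 fell 1.73-fold (log2 -0.79, SE 0.10, adjusted p = 1.11e-06), and the responses of knockout and control differed by -1.06 (SE 0.13, adjusted p = 3.98e-06). In the overexpressor clone the change was 0.051, with a 95% interval of -0.15 to 0.25. Knockout myotubes held 1.99-fold less Hspa5 than control myotubes (95% interval of the log2 difference -1.20 to -0.79, adjusted p = 4.85e-08), and overexpressor myotubes 1.58-fold less (log2 -0.66, SE 0.10, adjusted p = 1.03e-05).

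In myoblasts the clones parted: Hspa5 was lower in the overexpressor than in control (log2 -0.44, adjusted p = 0.0011), while the knockout differed from control by 0.066, with a 95% interval of -0.13 to 0.27. In myotubes the overexpressor was 1.27-fold above the knockout (log2 0.34, adjusted p = 0.00531). So the order of the edited clones was opposite in the 2 stages, with the overexpressor lower in myoblasts and higher in myotubes.

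Hsp90b1 encodes GRP94, the ER Hsp90, which folds a narrow set of clients that includes integrins and insulin-like growth factors. It lies on chromosome 10 (86690209 to 86705509, minus strand), where 3 annotated genes overlap it and share 15.7% of its exon bases. Of these 3 genes, 2 lie on the same strand as Hsp90b1, and the use of strand in the counting is not given in the sources used here. Reads from the shared bases are therefore uncertain. Control libraries held 631, 627 and 643 CPM in myoblasts and 473, 369 and 533 CPM in myotubes. The overexpressor held 505, 701 and 498 CPM in myoblasts and 266, 272 and 483.5 CPM in myotubes. The knockout held 724, 721 and 674 CPM in myoblasts and 279, 212 and 187 CPM in myotubes. Replicates were less even than for any other of the 10 genes, and single high libraries were overexpressor myoblast B and overexpressor myotube C. The knockout clone had the largest fall of the 10 genes with differentiation, 3.13-fold (log2 -1.64, SE 0.22, adjusted p = 1.55e-05). It differed from the control response by -1.18 (SE 0.31, adjusted p = 0.00591). The fall in the overexpressor clone (log2 -0.74, adjusted p = 0.00883) was lost without overexpressor myoblast B (adjusted p = 0.0534) and when only the compared groups were fitted (0.057). The control change was -0.47 with an adjusted p of 0.0767, and it was called with DESeq2 size factors (adjusted p = 0.0442), with library totals (0.012), in the DESeq2 Wald test (0.0159) and when only the compared groups were fitted (0.00921).

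In myotubes Hsp90b1 was 2.03-fold lower in the knockout than in control (log2 -1.02, SE 0.22, adjusted p = 0.000872). The overexpressor difference of -0.43 was not called (adjusted p = 0.111), but without its replicate C it was -0.67 (adjusted p = 0.00337). The overexpressor was called above the knockout (log2 0.59, adjusted p = 0.0309) although the ranges overlapped. Without overexpressor replicate C that difference was 0.28 (adjusted p = 0.175), and without knockout replicate B or C the adjusted p was 0.0857 or 0.126. It was also lost without the low-count filter (0.0696) and with only the compared groups (0.11).

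Dnajb9 encodes ERdj4, a J-domain partner of BiP that supports ER-associated degradation and represses IRE1. It lies on chromosome 12 (44205559 to 44210326, minus strand). Control libraries held 15.9, 13.6 and 14.9 CPM in myoblasts and 38.1, 36.2 and 40.3 CPM in myotubes. The overexpressor held 16.4, 18.2 and 15.9 CPM in myoblasts and 20.98, 23.1 and 32.5 CPM in myotubes. The knockout held 19.3, 21.8 and 19.6 CPM in myoblasts and 20.8, 17.6 and 16.1 CPM in myotubes. Control myotubes lay above every other library. The rise with differentiation was 2.58-fold in control (log2 1.37, SE 0.13, adjusted p = 5.89e-08) and 1.51-fold in the overexpressor (log2 0.60, SE 0.13, adjusted p = 0.000677). The knockout change was -0.16 with a 95% interval of -0.44 to 0.12, and with library totals it was called at -0.32 (adjusted p = 0.0473). Both responses differed from that of control, by -0.77 for the overexpressor (adjusted p = 0.00303) and -1.52 for the knockout (SE 0.19, adjusted p = 2.92e-06). In myoblasts Dnajb9 was higher in the knockout than in control (log2 0.45, adjusted p = 0.00818), the opposite of its difference in myotubes (log2 -1.07, adjusted p = 1.25e-06). The overexpressor myotubes were below control (log2 -0.58, adjusted p = 0.00094) and above the knockout (log2 0.49, adjusted p = 0.004), the latter not when only the compared groups were fitted (0.0536).

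Sdf2l1 encodes an ER-resident protein that works with BiP and the co-chaperone ERdj3 to keep unfolded proteins from aggregating. It lies on chromosome 16 (17130138 to 17132383, minus strand). Control libraries held 30.3, 31.6 and 28.6 CPM in myoblasts and 5.95, 6.64 and 5.46 CPM in myotubes. The overexpressor held 22.5, 19.6 and 21.2 CPM in myoblasts and 16.3, 14.9 and 13.8 CPM in myotubes. The knockout held 28.3, 28.2 and 30.3 CPM in myoblasts and 20.1, 19.9 and 22.4 CPM in myotubes. Control myotubes were the lowest libraries of all, with no overlap. Sdf2l1 fell 5.02-fold with differentiation in control (log2 -2.33, SE 0.094, adjusted p = 2.22e-13), against 1.41-fold in the overexpressor (log2 -0.49, SE 0.088, adjusted p = 8.25e-05) and 1.39-fold in the knockout (log2 -0.48, SE 0.088, adjusted p = 0.000123). The responses differed from control by 1.83 in the overexpressor (SE 0.13, adjusted p = 2.3e-09) and 1.85 in the knockout (SE 0.13, adjusted p = 1.65e-09). Sdf2l1 was 2.49-fold higher in overexpressor than in control myotubes (adjusted p = 7.36e-10) and 3.46-fold higher in knockout myotubes (adjusted p = 1.07e-11), which made it the one gene of the 10 that was higher in both edited clones there. In myoblasts it was lower in the overexpressor than in control (log2 -0.52, adjusted p = 0.000106), and the knockout difference was -0.059 (95% interval -0.24 to 0.12).

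**Figure D2:**
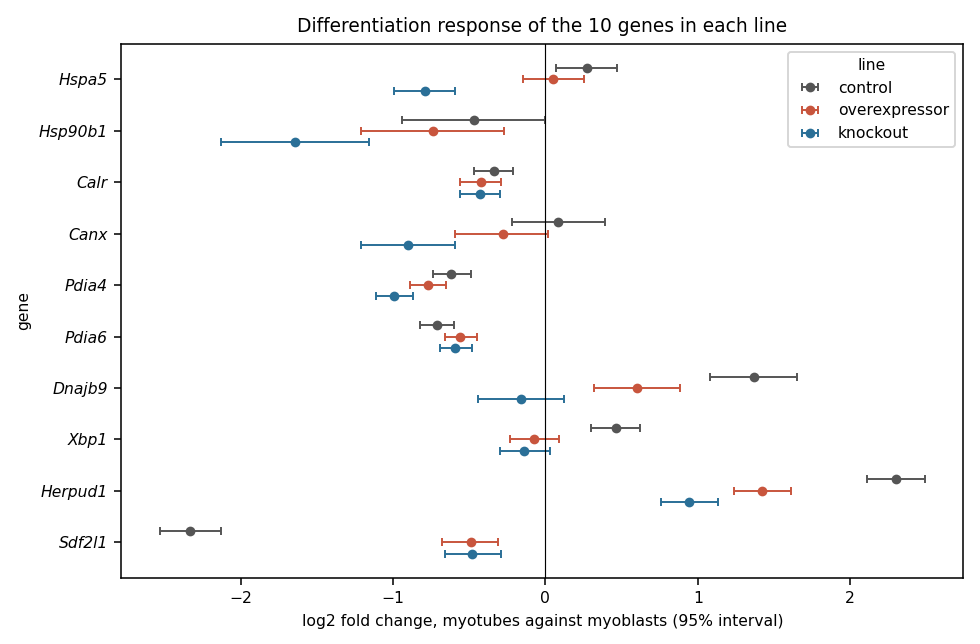
Log2 fold change of myotubes against myoblasts (x axis) for each of the 10 genes (y axis) in the 3 lines, with 95% intervals from the fit. The control points of Herpud1 (2.30) and Dnajb9 (1.37) lie to the right of both clones and that of Sdf2l1 (-2.33) to the left, while the 3 lines overlap for Calr.

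Calr and Canx encode calreticulin and calnexin, the soluble and the membrane-bound lectin of the ER, which bind glycoproteins that carry a terminal glucose. Calreticulin also stores calcium. Calr lies on chromosome 8 (84841850 to 84846934, minus strand). Control libraries held 1745, 1861 and 1883 CPM of Calr in myoblasts and 1513, 1433 and 1383 CPM in myotubes. The overexpressor held 932, 902 and 885 CPM in myoblasts and 722, 675 and 631 CPM in myotubes. The knockout held 902, 915 and 864 CPM in myoblasts and 624, 664 and 699.6 CPM in myotubes. All 6 control libraries lay above all 12 libraries of the edited clones. Calr was 2.02-fold lower in the overexpressor and 2.05-fold lower in the knockout in myoblasts (log2 -1.01 and -1.03, SE 0.063, adjusted p = 3.48e-10 and 1.77e-10). In myotubes it was 2.14-fold and 2.18-fold lower (log2 -1.09 and -1.12, SE 0.064, adjusted p = 6.01e-11 and 3.59e-11). The clones differed from each other by 0.021 in myoblasts (95% interval -0.11 to 0.15) and 0.028 in myotubes (95% interval -0.10 to 0.16). Calr fell with differentiation in each line, by 0.34, 0.42 and 0.43 on the log2 scale in control, overexpressor and knockout (adjusted p = 0.000114, 1.06e-05 and 1.07e-05). The responses differed from control by -0.081 (95% interval -0.27 to 0.11) and -0.089 (95% interval -0.28 to 0.10). Calr was the one gene of the 10 that was lower in both clones in both stages with no called difference in its response to differentiation.

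Canx lies on chromosome 11 (50293961 to 50325673, minus strand). Control libraries held 480.3, 500.1 and 526 CPM in myoblasts and 566, 462 and 569 CPM in myotubes. The overexpressor held 474, 554 and 412 CPM in myoblasts and 317, 378 and 489.5 CPM in myotubes. The knockout held 576, 587 and 582 CPM in myoblasts and 361, 306 and 268 CPM in myotubes. In myoblasts Canx was not called between lines, but all knockout libraries lay above the control and the overexpressor ones. With only the compared groups fitted, the knockout was called above control (log2 0.21, adjusted p = 5.21e-05) and the overexpressor below the knockout (log2 -0.28, adjusted p = 0.0203), the latter also without overexpressor myoblast B (log2 -0.39, adjusted p = 0.0468). It fell 1.87-fold with differentiation in the knockout (log2 -0.90, SE 0.14, adjusted p = 5.03e-05). The change was 0.084 in control (95% interval -0.22 to 0.39) and -0.28 in the overexpressor (95% interval -0.59 to 0.02), which was called at -0.42 without overexpressor myotube C (adjusted p = 0.00663) and at -0.38 without overexpressor myoblast C (0.0427). The knockout response differed from control by -0.99 (SE 0.20, adjusted p = 0.000844). In myotubes the knockout was 1.71-fold below control (log2 -0.77, adjusted p = 0.000186). The overexpressor was also called lower (log2 -0.43, adjusted p = 0.0173), but its range overlapped that of control. That call was lost in 7 alternatives, at adjusted p-values of 0.0553 to 0.117: library totals, no low-count filter, only the compared groups, and the removal of control replicate A or C or of overexpressor replicate A or B. The overexpressor was above the knockout by 0.34 (adjusted p = 0.0504), a difference called in 5 alternatives (lowest adjusted p = 0.00714): DESeq2 size factors, the DESeq2 Wald test, library totals, and the removal of replicate A of either clone.

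Pdia4 and Pdia6 encode ERp72 and P5, protein disulfide isomerases found in complexes with BiP. Pdia4 lies on chromosome 6 (47796141 to 47813430, minus strand). Its level was 216, 230.5 and 242 CPM in control myoblasts, 224, 213 and 200.5 in the overexpressor and 190.0, 195 and 191 in the knockout. In myotubes it was 153, 145 and 152 CPM in control, 127, 128 and 118 in the overexpressor and 98.3, 99.1 and 92.8 in the knockout. Every myotube library lay below every myoblast library. Pdia4 fell 1.53-fold with differentiation in control, 1.71-fold in the overexpressor and 1.99-fold in the knockout (log2 -0.62, -0.77 and -0.99, adjusted p = 3.49e-08, 1.52e-09 and 1.3e-10). The knockout response was lower than the control response by -0.37 (SE 0.082, adjusted p = 0.0011), which was -0.22 with DESeq2 size factors (adjusted p = 0.065) and in the DESeq2 Wald test (0.0605). Knockout myotubes held less Pdia4 than control myotubes (log2 -0.63, SE 0.058, adjusted p = 2.86e-08), and knockout myoblasts less than control myoblasts (log2 -0.26, adjusted p = 0.00106). The overexpressor myotubes were called lower than control (log2 -0.27, adjusted p = 0.000662). Without overexpressor replicate C this difference was -0.13 (adjusted p = 0.097), with DESeq2 size factors -0.16 (0.0587), in the DESeq2 Wald test -0.16 (0.0552) and with library totals -0.12 (0.0909). In myotubes the overexpressor was above the knockout (log2 0.36, adjusted p = 4.32e-05), and in myoblasts the difference of 0.14 (adjusted p = 0.044) was lost in 9 alternatives, at adjusted p-values of 0.0616 to 0.241: library totals, no low-count filter, the replicate block, only the compared groups, and the removal of overexpressor replicate A or B or of any knockout replicate.

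Pdia6 lies on chromosome 12 (17266545 to 17284770, plus strand), with 1.34% of its exon bases shared with Atp6v1c2. Its level was 384, 411 and 398 CPM in control myoblasts, 428, 418 and 398 in the overexpressor and 293, 307 and 307 in the knockout. In myotubes it was 249, 238 and 241 CPM in control, 271, 289 and 286 in the overexpressor and 203, 205 and 197 in the knockout. The overexpressor was the highest line by mean and the knockout the lowest in both stages. Pdia6 was lower in the knockout than in control in myoblasts (log2 -0.39, SE 0.051, adjusted p = 2.94e-06) and in myotubes (log2 -0.27, SE 0.051, adjusted p = 0.00015). The overexpressor was 1.16-fold above control in myotubes (log2 0.21, adjusted p = 0.00136) and differed by 0.06 in myoblasts (95% interval -0.05 to 0.17). The edited clones differed from each other by 0.45 in myoblasts and 0.48 in myotubes (adjusted p = 4.79e-07 and 3.71e-07). The fall with differentiation had log2 values of -0.71, -0.56 and -0.59 for control, overexpressor and knockout cells (adjusted p = 7.15e-10, 1.94e-08 and 1.72e-08). Its response was not called different from control in either clone (differences of 0.15 and 0.13, adjusted p = 0.0993 and 0.154). Both were called higher with DESeq2 size factors (0.27 and 0.28, adjusted p = 0.0148 and 0.00853), in the DESeq2 Wald test (0.00224 and 0.000993) and with library totals (0.34 and 0.20, adjusted p = 0.000789 and 0.0263), and that of the overexpressor also without its myotube replicate C (0.25, adjusted p = 0.0156).

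Xbp1 encodes the transcription factor whose messenger RNA is spliced by IRE1 into its active form. Counts per gene do not tell the spliced from the unspliced form, so the values are total Xbp1 messenger RNA. The gene lies on chromosome 11 (5520659 to 5525893, plus strand). Control libraries held 146, 154 and 151 CPM in myoblasts and 217, 217 and 187 CPM in myotubes. The overexpressor held 153, 131 and 144 CPM in myoblasts and 143, 139 and 125 CPM in myotubes. The knockout held 209.9, 211 and 209.6 CPM in myoblasts and 178, 186 and 209.8 CPM in myotubes. The range of Xbp1 over the group means, 1.55-fold, was the narrowest of the 10 genes. It rose with differentiation in control by 0.46 (SE 0.077, adjusted p = 4.66e-05), while the changes were -0.072 in the overexpressor (95% interval -0.23 to 0.09) and -0.14 in the knockout (95% interval -0.30 to 0.03), the last called lower with library totals and without knockout myotube C (lowest adjusted p = 0.000845). Both responses were lower than that of control, by -0.53 (adjusted p = 0.000724) and -0.60 (adjusted p = 0.000216). The clones reached this from different starting levels. Knockout myoblasts held 1.40-fold more Xbp1 than control myoblasts (log2 0.48, adjusted p = 3.95e-05), and their myotubes differed from control by -0.12 (95% interval -0.28 to 0.05), or by -0.19 without knockout myotube C (adjusted p = 0.0493). Overexpressor myoblasts differed from control by -0.078 (95% interval -0.24 to 0.09), and their myotubes were 1.53-fold lower than control (log2 -0.61, adjusted p = 2.11e-06). The overexpressor was below the knockout in both stages (log2 -0.56 and -0.49, adjusted p = 7.02e-06 and 3.4e-05).

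Herpud1 encodes HERP, an ER membrane protein that assembles the HRD1 ubiquitin ligase complex for degradation of misfolded proteins. Its upstream sequence above holds both an ERSE-II and an ATF4 element. The gene lies on chromosome 8 (94386438 to 94395377, plus strand), and the antisense gene Gm15890 overlaps it without sharing exon bases. Control libraries held 102, 113 and 109 CPM in myoblasts and 565, 551 and 480.5 CPM in myotubes. The overexpressor held 67.5, 57.1 and 59.7 CPM in myoblasts and 182, 160.3 and 152 CPM in myotubes. The knockout held 96.2, 103 and 93.9 CPM in myoblasts and 172, 187 and 206 CPM in myotubes. Every myotube library was above every myoblast library, and the 3 control myotube libraries were above all others. The ratio of the highest to the lowest group mean, 8.66, was the largest of the 10 genes. Herpud1 rose 4.92-fold with differentiation in control (log2 2.30, SE 0.091, adjusted p = 1.71e-13), 2.68-fold in the overexpressor (log2 1.42, SE 0.089, adjusted p = 1.03e-10) and 1.92-fold in the knockout (log2 0.94, SE 0.088, adjusted p = 4.15e-08). It was the one gene of the 10 that rose in each of the 3 lines. The responses differed from control by -0.88 for the overexpressor (SE 0.12, adjusted p = 1.59e-05) and -1.35 for the knockout (SE 0.12, adjusted p = 6.97e-08). In myotubes it was 3.23-fold lower than control in the overexpressor (adjusted p = 1.54e-11) and 2.83-fold lower in the knockout (adjusted p = 6.42e-11), and the clones were not called different (log2 -0.19, adjusted p = 0.0664, ranges overlapping), though they were without replicate A of either (lowest adjusted p = 0.0166). In myoblasts it was 1.76-fold lower in the overexpressor (log2 -0.82, adjusted p = 5.46e-07), and the knockout difference was -0.14 (95% interval -0.33 to 0.04).

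**Figure D3:**
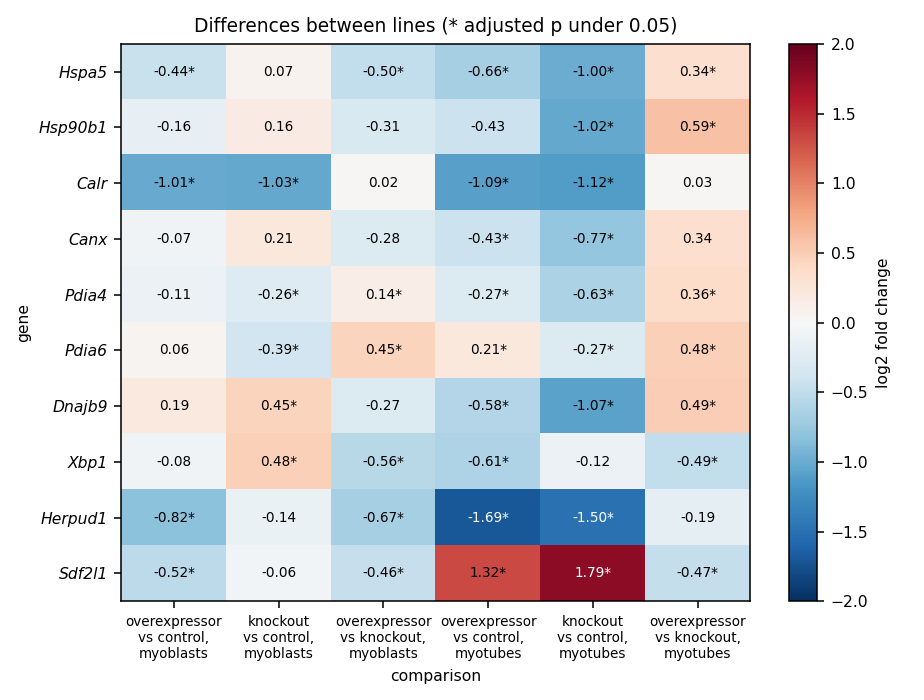
Log2 fold change between lines (colour and number in each cell) for each of the 10 genes (rows) in the 3 comparisons of each stage (columns), with an asterisk for an adjusted p under 0.05. Calr is near -1 in all 4 comparisons of a clone with control, while in myotubes Herpud1 has the lowest cell (-1.69, overexpressor) and Sdf2l1 the highest (1.79, knockout).

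Across the 18 libraries the levels of the 10 genes fell into no single profile. The highest Pearson correlations of log2 CPM were those of Hsp90b1 with Canx (0.93) and of Pdia4 with Pdia6 (0.90), and the lowest was that of Dnajb9 with Sdf2l1 (-0.90). Herpud1 correlated at 0.78 with Dnajb9 and at -0.84 with Sdf2l1. These are descriptions over 18 libraries that share groups, lines and scaling. The genes outside the 10 whose profile was most like that of Hspa5, by Pearson r over the same libraries, were Sec22b (0.976), Slc31a1 (0.972), Mtpap (0.962), Lman1 (0.957) and Cog3 (0.95). Most like the mean of the 10 standardised profiles were Zfp9 (0.981), Plod2 (0.978), Arcn1 (0.973), Serp1 (0.969) and Lman1 (0.962).

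The other genes of the response were read from lists. The shares of all genes to set beside their counts are 33.9% higher and 28.8% lower in control differentiation, 26.2% and 30.9% in overexpressor against control myotubes, and 31.0% and 37.0% in knockout against control myotubes. Those of the PERK-ATF4 branch, which halts translation and induces amino acid and stress genes, moved together. All 8 rose with differentiation in control cells, at a median log2 fold change of 3.48 (all genes tested, 0.07), and all 8 were lower than control in the myotubes of the overexpressor (median -1.94) and of the knockout (median -1.83), where the medians of all genes were -0.04 and -0.07. Atf4, its transcription factor, was at 286 ± 2.03 CPM in control myoblasts and 1153 ± 19.9 CPM in control myotubes, and at 435 ± 34.8 and 454 ± 22.1 CPM in the myotubes of the overexpressor and the knockout (SD, n = 3). Ddit3, which encodes the stress factor CHOP, was at 10.8 ± 1.21 CPM in control myoblasts and 145 ± 1.39 CPM in control myotubes, against 9.33 ± 1.91 and 16.6 ± 0.775 CPM in the myotubes of the clones. The Atf4 response was lower than that of control by -1.36 and -1.81 (adjusted p = 3.57e-10 and 9.33e-12), and the Ddit3 response by -3.94 and -3.91 (adjusted p = 2.55e-12 and 1.92e-12). Trib3, a pseudokinase target of ATF4, rose by 6.26 in control. In myoblasts 7 of the 8 genes were already higher in the knockout than in control (median 0.94), among them Atf3 (4.03) and Ddit3 (0.78). In overexpressor myoblasts 4 were higher and 1 lower. Of all genes, 26.4% were higher and 26.6% lower in knockout myoblasts (median 0.02), and 20.7% and 19.7% in those of the overexpressor.

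Of the sensors and their processing enzymes, 6 of 7 were tested. In control differentiation 4 rose and 0 fell, with Atf6 at 1.79 and Ern1 at 1.04 on the log2 scale. Eif2ak3, which encodes PERK, was not called there (log2 -0.19, adjusted p = 0.062). With library totals, which moved the median of all genes from 0.07 to -0.17 in this comparison, 2 sensors were called higher and 2 lower. Over all genes that scaling gave 4336 higher and 7091 lower calls, against 6074 and 5166 with TMM factors. In myotubes 4 of the 6 were lower and 0 higher in the overexpressor, and 5 lower and 1 higher in the knockout, the higher one being Atf6b (0.44). Ern1 was lower by -1.39 in the overexpressor and -1.84 in the knockout (adjusted p = 1.43e-11 and 3.55e-13), and Eif2ak3 by -0.55 and -1.03 (adjusted p = 2.61e-05 and 1.04e-08). Atf6 in myoblasts was higher in the knockout than in control (log2 0.90, adjusted p = 7.21e-09).

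Of 14 other ER chaperones and co-chaperones, 5 rose and 5 fell in control differentiation, shares close to the 33.9% and 28.8% of all genes. In myotubes 8 were lower and 1 higher in the overexpressor, and 9 lower and 2 higher in the knockout (all genes, 30.9% and 37.0% lower). Manf and Creld2, secreted and luminal ER stress proteins, fell in control cells as Sdf2l1 did, by 0.67 and 0.74 on the log2 scale (adjusted p = 2.71e-08 and 6.52e-09). Their responses were higher than control by 0.45 and 0.42 in the overexpressor (adjusted p = 0.000421 and 0.000725). In the knockout they were higher by 0.25 and 0.30 (adjusted p = 0.0263 and 0.00842). These differences were smaller than those of Sdf2l1. Unlike Sdf2l1, neither gene was called between overexpressor and control myotubes (log2 -0.053 and 0.033). Both were lower in overexpressor than in control myoblasts (log2 -0.50 and -0.39). In knockout myotubes Manf was higher than control (log2 0.22) and Creld2 was not called (0.025). The difference of the Manf response in the knockout did not pass without the low-count filter (adjusted p = 0.108). It also did not pass in fits without 1 of 4 libraries, at adjusted p-values of 0.0519 to 0.0629. These were control myoblast B or C, knockout myoblast A and knockout myotube C. Hyou1, an ER Hsp110 that recharges BiP, was lower than control in every comparison of a clone, by -0.69 and -0.21 in myoblasts and -0.81 and -0.33 in myotubes.

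Of 14 tested genes of the protein disulfide isomerase family and its oxidases, 4 rose and 7 fell in control differentiation (all genes, 33.9% and 28.8%). Against control myotubes, 2 were higher and 6 lower in the overexpressor (median log2 -0.38, all genes 26.2% and 30.9%). In the knockout 2 were higher and 9 lower (median -0.68, all genes 31.0% and 37.0%). Ero1l (also named Ero1a), the oxidase that recharges the isomerases, was the most changed: it was at 25.9 ± 0.796 CPM in control myoblasts and 161 ± 12.1 CPM in control myotubes, and at 11.8 ± 1.57 and 7.45 ± 0.821 CPM in the myotubes of the overexpressor and the knockout (SD, n = 3). The difference from control in myotubes was -3.77 and -4.43 on the log2 scale (adjusted p = 1.21e-14 and 2.22e-15). It rose in control with differentiation and fell in both clones (log2 2.64, -0.85 and -1.26).

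Genes of ER-associated degradation, the pathway of Herpud1, gave 11 rises and 2 falls among 18 tested in control differentiation (median 0.41). In myotubes 10 were lower and 1 higher in the overexpressor, and 11 lower and 2 higher in the knockout. With library totals the counts were 8 rises and 6 falls in control differentiation, and 5 higher and 8 lower in the overexpressor. Over all genes that scaling gave 4336 rises and 7091 falls in control differentiation, and 5943 higher and 4337 lower calls in the overexpressor. Edem1, a lectin that hands misfolded glycoproteins to degradation, was lower in both (log2 -2.28 and -2.48, adjusted p = 1.3e-14 and 4.57e-15), as was the ligase adaptor Sel1l (log2 -0.97 and -1.43, adjusted p = 1.06e-10 and 5.05e-13). Of 11 tested genes of glycan trimming and the lectin cycle, 8 were lower and 1 higher in the overexpressor and 6 lower and 2 higher in the knockout, and of 16 genes of ER translocation 11 were lower in each clone and 0 higher (all genes, 30.9% and 37.0% lower).

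The 16 collagen chaperones and modifying enzymes also moved together: 15 of the 16 were lower than control in the myotubes of each clone and 0 were higher (medians -0.83 and -0.79), where 30.9% and 37.0% of all genes were lower. The summed fibroblast markers moved the same way, at 154 to 169 CPM in control myotubes against 15.7 to 18.8 and 61.9 to 74.1 CPM in those of the overexpressor and the knockout, and their part in the result was not tested. Serpinh1, the collagen chaperone HSP47, was at 2884 ± 243 CPM in control myotubes, and at 819 ± 76.4 and 878 ± 45.6 CPM in those of the overexpressor and the knockout (SD, n = 3). By contrast, 12 and 11 of 13 tested genes of sarcoplasmic reticulum calcium handling were higher than control in these myotubes (medians 1.09 and 1.19), with Casq1, which encodes the calcium store protein calsequestrin, at 2.33 and 2.66. Atp2a3, a calcium pump, was lower in both (log2 -6.45 and -5.95). Of 14 cytosolic heat shock genes, a control list outside the ER, 1 was higher and 5 lower in the overexpressor. In the knockout 5 were higher and 6 lower, close to the 31.0% and 37.0% of all genes. With library totals 4 were higher and 2 lower in the overexpressor. Over all genes that scaling gave 5943 higher and 4337 lower calls in the overexpressor, against 4693 and 5543 with TMM factors.

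**Figure D4:**
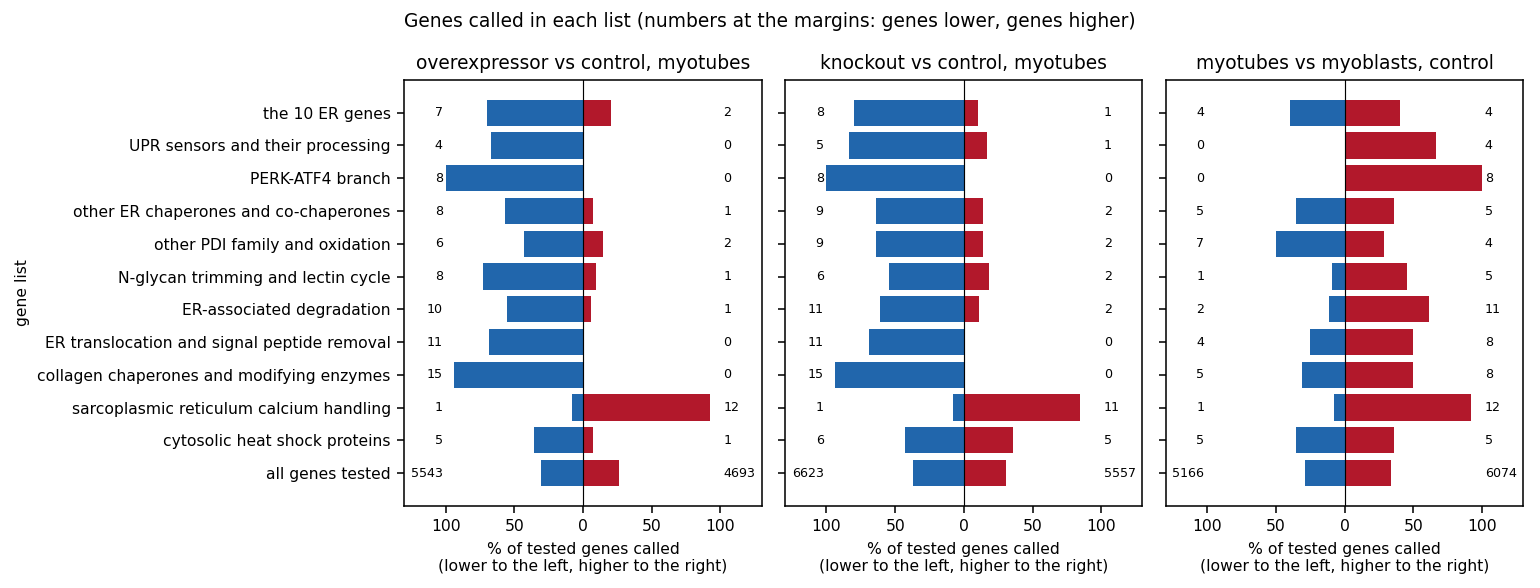
Share of the tested genes of each list called lower (left, blue) and higher (right, red) at an adjusted p under 0.05 (x axis, in %) in 3 comparisons, with the number of genes at each margin and all genes tested in the last row. The 8 genes of the PERK-ATF4 branch are all lower in the myotubes of both clones and all higher with differentiation of control cells.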

How the data were processed

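The deposited table holds the authors' raw counts of polyadenylated RNA per Ensembl mouse gene, 1 column for each of the 18 libraries. Per the submitters' processing notes, the tools named are STAR 2.7.9a, featureCounts, Subread 2.0.3, FastQC 0.11.7 and DESeq2 1.32.0, with the mm10 build. The use of strand in the counting is not given in the sources used here. The authors also deposited variance-stabilised values, which were not used. The 260 IDs without a symbol carried 0.00589% of the counts. Libraries were grouped by their titles. No 2 replicates agreed within sampling noise (chi-square per degree of freedom of 4.55 to 114).

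Counts were tested in R 4.3.3 with edgeR 4.0.16 (TMM factors of 0.895 to 1.08, filterByExpr, robust quasi-likelihood). All 18 libraries entered 1 fit with 6 group coefficients and 12 residual degrees of freedom. The 11 contrasts were each pair of lines within a stage, myotubes against myoblasts in each line, and the difference of each edited clone's differentiation response from that of control. The responses of the edited clones were not tested against each other. Adjusted p-values are Benjamini-Hochberg values over all 17912 tested genes, and the threshold was 0.05. CPM values use the TMM-scaled library sizes, and values per kilobase use the merged exons of the GENCODE M21 annotation (GRCm38). RefSeq promoter windows of GRCm38.p6 were matched to all 10 genes by symbol. Counts were also simulated from the control myoblast means for all groups, with 100 genes changed 2-fold and 100 changed 4-fold in overexpressor myoblasts. In the overexpressor against control myoblasts, 75% of 2-fold and 90% of 4-fold changes were recovered, and 6 of 17458 unchanged genes were called, over 17912 genes. The data themselves gave 7231 calls in this comparison, so these rates may not carry over to them.

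The 10 genes, the 10 lists (136 genes, 130 tested) and the tests were chosen with earlier results of these data known. Besides the 10 genes, the text names 18 fixed list genes, at most the 2 highest and the 2 lowest called genes of a list and comparison, and the 5 genes most like Hspa5 and the mean profile, among genes with a mean of at least 5 CPM. The list genes Ern2, Pdia2, Clgn, Derl3, Sln and Pln did not pass the filter. Likeness was computed on log2 CPM with a prior count of 2. Replicate letters were not treated as pairs. The alternatives were DESeq2 size factors, library totals, no low-count filter, a replicate block, fits of the compared groups only, the DESeq2 1.42.0 Wald test and leaving out each library.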

Additional observations from a re-analysis of the deposited data

Results flagged for a closer look

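For 8 of the 10 genes the change from myoblasts to myotubes differed between a clone and control by the interaction test of edgeR. Of all genes tested, 29.9% had a lower and 20.2% a higher response in the knockout clone. In the overexpressor clone these shares were 22.3% and 16.6%. The share of all genes called in either clone was not counted. Log2 differences of the 8 genes were as follows. In the knockout clone the response was lower than in control for Hspa5 (-1.06), Hsp90b1 (-1.18), Canx (-0.99) and Pdia4 (-0.37), 4 genes for which the overexpressor difference was not called, although that of Canx was without overexpressor myotube C (adjusted p = 0.0431). In both clones the response was lower for Dnajb9 (-0.77 in the overexpressor and -1.52 in the knockout), Xbp1 (-0.53 and -0.60) and Herpud1 (-0.88 and -1.35). In both it was higher for Sdf2l1 (1.83 and 1.85). The differences of Pdia6 were called only with DESeq2 size factors, in the DESeq2 Wald test, with library totals and, in the overexpressor, without myotube C. Whether the clones differ from each other in these responses was not tested. The summed muscle markers moved with the lines in both stages, and their part in these differences was not tested.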

How the results depend on the processing

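Of the 75 calls among 110 results for single genes of the 10, 67 kept their direction and side of the threshold under every alternative run, and the 8 others are named in the report with the alternatives that ended them. Of the 35 results not called, 17 were called under at least 1 alternative. The fit of only the compared groups called 8 of the 10 genes for knockout against control myoblasts, against 5. Over all genes it gave 11506 calls, against 9489. With the replicate block, 109 of 110 results stayed on their side and the call for Pdia4 between the clones in myoblasts was lost (log2 0.14, adjusted p = 0.0647). Libraries of the same letter did not deviate together: 4 of 45 pairs correlated above 0.1 (r of -0.358 to 0.264), and 0 of 18 libraries correlated best with their own letter, so the letters were not taken as pairs. Signs turned only for differences that were not called. With library totals these were Hspa5 in overexpressor differentiation (-0.0060), Canx in control differentiation (-0.16), and the overexpressor minus control responses of Calr (0.11) and Pdia4 (0.032). With DESeq2 size factors, and equally in the Wald test, they were the Calr responses minus control (0.033 in the overexpressor, 0.066 in the knockout), Xbp1 in knockout against control myotubes (0.018) and in overexpressor differentiation (0.013). Without the low-count filter it was Calr between the clones in myoblasts (-0.0011). Leaving out each library in turn gave -0.046 to 0.12 for Hspa5 in overexpressor differentiation, -0.0031 to 0.038 and -0.021 to 0.10 for Calr between the clones in myoblasts and myotubes, -0.13 to 0.077 for the Calr response of the overexpressor minus control, -0.18 to 0.033 for Canx in overexpressor against control myoblasts and -0.13 to 0.025 for Xbp1 in overexpressor differentiation. The cause was not tested. Among the 10 genes counting error weighs most on Sdf2l1 in control myotubes, where the lowest library held 290 counts.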

Other observations

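Genes around the 10 also differed between the edited clones themselves. In myoblasts 7 of the 8 genes of the PERK-ATF4 branch were lower in the overexpressor than in the knockout and 0 were higher (median log2 -0.64, all genes tested -0.02), among them Ddit3 (-0.80) and Asns (-0.74), which makes asparagine. Of 16 genes of ER translocation, 8 were lower and 0 higher there, and of 13 tested genes of sarcoplasmic reticulum calcium handling 12 were lower and 1, Atp2a3 (2.07), was higher. Of all genes, 26.9% were lower and 25.7% higher in this comparison. Against control, 7 of the 13 calcium handling genes were higher and 0 lower in overexpressor myoblasts (median log2 0.33). In knockout myoblasts 11 were higher and 0 lower (median 4.04). Of all genes, 20.7% were higher and 19.7% lower in overexpressor myoblasts against control, and 26.4% and 26.6% in knockout myoblasts. In myotubes of the overexpressor against the knockout, 29.1% of all genes were lower and 30.6% higher. There 4 of the 8 genes of the PERK-ATF4 branch were lower and 2 higher, Trib3 (0.88) and Chac1 (0.67). ER translocation gave 5 lower and 6 higher, and calcium handling 6 lower and 1 higher (median -0.24).

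During differentiation of the edited clones the collagen chaperones and modifying enzymes gave 12 falls and 0 rises among 16 genes in the overexpressor and 13 falls and 0 rises in the knockout, where control cells gave 5 falls and 8 rises. The falls over all genes were 33.0%, 35.6% and 28.8% in the same order. The collagen prolyl hydroxylase subunit P4ha3 fell in all 3 lines (log2 -0.90, -2.03 and -2.31 in control, overexpressor and knockout). Prdx4, an ER peroxiredoxin, had log2 changes of -1.77 in control and -1.73 in the overexpressor. Its response in the knockout was higher than that of control by 0.90 (adjusted p = 2.4e-05). That is less than the control fall, so the fitted change in the knockout was a smaller fall and not a rise.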
